A study of Mus musculus with 27 samples.

Results

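The 30 genes described here carry out cholesterol synthesis, sense sterol levels or move cholesterol out of the cell, in the livers of female mice dosed with 2,3,7,8-tetrachlorodibenzo-p-dioxin (TCDD). They are a list of genes of this pathway, put together with earlier results of these data known, and they are 30 of the 41388 Ensembl gene identifiers in the deposited counts, which is not every gene of the pathway. By role, 8 are mevalonate and isoprenoid enzymes, 12 are squalene and sterol ring enzymes, and 4 act in efflux and esterification. The other 6 are grouped here as sterol-sensing genes: regulators or targets of the transcription factor SREBP2, together with Mylip, an LXR target. The mice were ovariectomized C57BL/6 females with an age label of 120 days, gavaged every 4 days for 92 days. TCDD was given at 8 doses, 0.01 and 0.03 µg/kg, 0.1 and 0.3 µg/kg, 1 and 3 µg/kg, and 10 and 30 µg/kg, and sesame oil was the vehicle control. One label also calls the gavage daily. Each of the 9 groups had 3 livers, sequenced as 27 libraries. All groups share the ovariectomy, the sex and the strain, so the livers model females without ovarian hormones. The labels number the livers of a group and do not say that each came from a separate mouse, so p-values measure the spread between these samples, which may in part be technical.

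The second 0.3 µg/kg library held 434011 counts, with 0 to 271 counts for the cholesterol genes and 4 of them under 10 counts. The other 26 libraries held 11050391 to 30873586 counts, with at least 31 counts for every cholesterol gene. The 6 hepatocyte markers, a check of the liver label, summed to 56010 to 94560 CPM (counts per 1000000 counts of a library) in 30 µg/kg livers and 115700 to 224600 CPM in vehicle livers. As a check of the dosing, Cyp1a1, the classical target of the dioxin receptor AHR, was at 6938, 7943 and 6721 CPM in 30 µg/kg livers, against 3.69, 3.19 and 2.49 CPM in vehicle livers. The 27 libraries carry 24 distinct sequencing indices, and only vehicle and 30 µg/kg libraries have an index in common. Every other library has its own index. Index and dose therefore cannot be told apart in comparisons of 0.01 to 10 µg/kg with vehicle, or of 30 µg/kg with 10 or 3 µg/kg. For fits of the trend, the vehicle, 0.01, 0.03, 0.1 and 30 µg/kg libraries were taken as a first index set. The 0.3, 1, 3 and 10 µg/kg libraries were taken as a second, and no index occurs in both. Any other split that keeps vehicle and 30 µg/kg together would also have no index in both. The 2 sets are therefore a choice made here and not a known batch. The 30 µg/kg and vehicle libraries use the same 3 indices. Libraries with the same index cannot be separated after being read together, so each such pair must have been read in separate pools or lanes. Pool and dose may therefore be mixed in the comparison of 30 µg/kg with vehicle, which was not tested.

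Hepatocytes make cholesterol from acetyl-CoA: the mevalonate enzymes build isoprenoid units, farnesyl units are joined to squalene, and the squalene is closed to a ring and trimmed to cholesterol. When sterol in the endoplasmic reticulum (ER) is low, the escort protein SCAP carries SREBP2 to the Golgi, where proteases release a fragment that switches on the enzyme genes. When sterol is high, INSIG proteins hold SCAP in the ER. Cholesterol leaves the hepatocyte through ABC transporters, ABCA1 toward lipoproteins and the ABCG5 and ABCG8 pair toward bile, or is stored as esters made by SOAT2. AHR, once bound by TCDD, pairs with ARNT and binds DNA at sites with the core GCGTG.

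SREBP2 binds sterol response elements, for which the core TCACNCCA was searched, with N for any base, together with the CCAAT box of its partner NF-Y. Promoter windows of 300 bases, from 250 before to 50 after a start site, were read from RefSeq on build GRCm38.p6 for the 25 of 30 genes that matched, which have 32 windows. On either strand, TCACNCCA stood in 3 of 32 windows (9.38%), against 4.36% of all 32851 RefSeq windows. CCAAT stood in 22 of 32 windows (68.8%), against 37.4% of all windows. GGGCGG, the box of SP1-type factors, stood in 75% of the 32 windows, against 35.7% of all windows. GCGTG stood in 53.1% of the 32 windows, against 32.4% of all windows. TCACNCCA can share its last bases with CCAAT, and windows of one gene or of neighbouring genes can overlap. A match is a description and not a binding site. The 3 windows with TCACNCCA belong to Hmgcs1, at chr13:119690101-119690400 on the plus strand, Msmo1, at chr8:64733529-64733828 on the minus strand, and Srebf2, at chr15:82147019-82147318 on the plus strand. They are printed 5′ to 3′ along the gene, with TCACNCCA and CCAAT matches, or their reverse complements, in capitals.
Hmgcs1: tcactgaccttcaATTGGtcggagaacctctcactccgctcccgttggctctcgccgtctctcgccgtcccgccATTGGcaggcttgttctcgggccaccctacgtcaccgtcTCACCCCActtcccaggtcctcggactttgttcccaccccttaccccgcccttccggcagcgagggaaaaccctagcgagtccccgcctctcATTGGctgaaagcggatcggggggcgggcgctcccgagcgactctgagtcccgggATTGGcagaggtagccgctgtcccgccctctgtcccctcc
Msmo1: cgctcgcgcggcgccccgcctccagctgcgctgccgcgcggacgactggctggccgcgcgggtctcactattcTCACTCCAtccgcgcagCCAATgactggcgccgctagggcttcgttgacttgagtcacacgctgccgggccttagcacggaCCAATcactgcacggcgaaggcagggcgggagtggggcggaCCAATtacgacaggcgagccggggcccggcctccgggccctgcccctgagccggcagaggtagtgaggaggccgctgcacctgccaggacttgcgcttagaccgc
Srebf2: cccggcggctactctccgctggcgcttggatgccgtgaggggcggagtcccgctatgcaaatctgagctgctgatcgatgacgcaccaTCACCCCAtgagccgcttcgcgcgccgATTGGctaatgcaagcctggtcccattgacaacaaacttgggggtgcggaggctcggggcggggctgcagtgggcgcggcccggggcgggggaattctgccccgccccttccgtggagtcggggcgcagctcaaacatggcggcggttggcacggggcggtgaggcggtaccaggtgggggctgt
The core starts 137 bases before the start site in Hmgcs1, 177 in Msmo1 and 162 in Srebf2, and the Hmgcs1 window also holds 4 CCAAT boxes.

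Insig2, the gene called at the lowest dose, has 3 RefSeq windows on the minus strand, which differ in GCGTG. The window at chr1:121332540-121332839 has 0 matches, and that at chr1:121327629-121327928 has 1. The window at chr1:121327975-121328274 has 3, shown in capitals on either strand, of which the last 2 overlap.
Insig2, chr1:121332540-121332839: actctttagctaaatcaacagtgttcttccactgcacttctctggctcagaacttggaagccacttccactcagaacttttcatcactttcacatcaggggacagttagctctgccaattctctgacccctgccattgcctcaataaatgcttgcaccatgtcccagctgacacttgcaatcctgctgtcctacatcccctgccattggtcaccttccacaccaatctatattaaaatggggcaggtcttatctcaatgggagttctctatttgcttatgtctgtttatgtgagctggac
Insig2, chr1:121327975-121328274: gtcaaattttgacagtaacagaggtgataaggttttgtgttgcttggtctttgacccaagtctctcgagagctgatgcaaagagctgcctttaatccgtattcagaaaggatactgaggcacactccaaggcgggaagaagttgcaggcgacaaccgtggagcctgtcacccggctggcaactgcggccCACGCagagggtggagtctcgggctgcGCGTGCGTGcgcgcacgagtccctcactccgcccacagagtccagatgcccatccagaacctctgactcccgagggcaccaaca
Counts per gene do not tell which start site was used.

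Expression was compared between each dose and vehicle with edgeR's quasi-likelihood test on the deposited counts, fitted over 15121 genes in all 27 libraries. A gene was called where the Benjamini-Hochberg adjusted p over all tested genes was below 0.05, and rose or fell is written of called genes only. All 30 cholesterol genes passed the filter on low counts. Levels are CPM with the library sizes scaled by the TMM method, and fold changes are on the log2 scale with their standard errors (SE).

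Cholesterol genes fell at the higher doses, and at 30 µg/kg all 30 estimates were below 0. At 30 µg/kg 19 of 30 genes fell and 0 rose, against 19.4% of all tested genes that fell and 18% that rose. The 11 genes not called had 3 with an unadjusted p below 0.05. At 10 µg/kg 8 genes fell and 0 rose (background 11.2% lower, 11.3% higher). At 3 µg/kg 3 fell and 1 rose (background 4.89% lower, 5.17% higher), at 1 µg/kg 4 fell and 1 rose (8.21% lower, 11.1% higher), and at 0.3 µg/kg 1 fell and 0 rose (0.562% lower, 0.622% higher). The edgeR test called 0 of 30 at 0.01 µg/kg (background 0% in each direction), 0.03 µg/kg (0.00661% lower, 0.0331% higher) and 0.1 µg/kg (0.0463% lower, 0.145% higher). At these 3 doses DESeq2 also called 0, and the unadjusted edgeR p was below 0.05 for 1, 4 and 2 of the 30.

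The median log2 fold change of the 30 genes was -0.17, -0.26, -0.07 and 0.07 at 0.01, 0.03, 0.1 and 0.3 µg/kg, and -0.24, -0.31, -0.59 and -1.03 at 1, 3, 10 and 30 µg/kg. Over all tested genes the median lay between -0.03 and 0.00 at every dose. At 30 µg/kg the median of all genes moved to 0.10 with the size factors of the RLE method, where the median of the cholesterol genes was -0.92 and 17 were called. The lowest group mean was at 30 µg/kg for 24 of 30 genes. At that dose 5 of 6 hepatocyte markers fell as well, with the sums given above, and in bulk tissue fewer cells of a type and less RNA per cell cannot be told apart. Leaving out the first or the third 30 µg/kg library left 13 of 19 calls, and leaving out the second vehicle library left 15. How the calls over all tested genes changed in these refits is not given here.

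**Figure D1:**
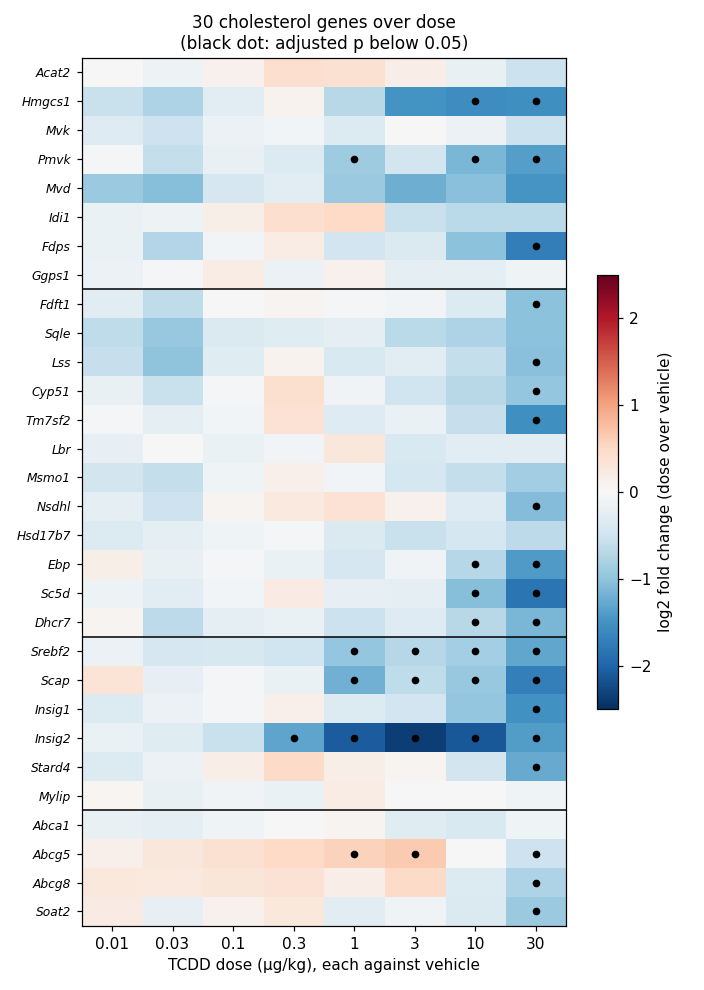
Log2 fold change of each of the 30 cholesterol genes (down the page, grouped by role) at each TCDD dose in µg/kg against vehicle (across), with colour for the fold change and a black dot where the adjusted p was below 0.05. Dots number 19 at 30 µg/kg and 8 at 10 µg/kg, and Abcg5 at 1 and 3 µg/kg are the 2 dots on red.

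Among the sterol-sensing genes, Insig2, Scap and Srebf2 fell from lower doses than any synthesis enzyme that stayed called, and at 30 µg/kg 5 of 6 fell. Insig2, on chromosome 1 (ENSMUSG00000003721), encodes an ER anchor of SCAP, and it is the form whose liver-specific transcript is known to fall when insulin rises. Its level was 324, 418 and 380 CPM in the 3 vehicle livers. The 0.3 µg/kg livers had 179, 201 and 86.7 CPM, the 1 µg/kg livers 85.3, 96.5 and 82.5 CPM and the 3 µg/kg livers 81.1, 81.4 and 58.1 CPM. The 10 µg/kg livers had 82.2, 61.9 and 113 CPM, and the 30 µg/kg livers 156, 81.9 and 187 CPM. Every liver from 0.1 µg/kg up lay below every vehicle liver, and the lowest group was 3 µg/kg, not 30 µg/kg. The 0.1 µg/kg livers had 204, 286 and 277 CPM, and Insig2 was not called there. The 0.01 and 0.03 µg/kg livers overlapped the vehicle livers. The fold change was -1.32 ± 0.30 at 0.3 µg/kg (adjusted p = 0.0243), -2.09 ± 0.30 at 1 µg/kg (adjusted p = 3.14e-05), -2.35 ± 0.30 at 3 µg/kg (adjusted p = 5.63e-06), -2.12 ± 0.30 at 10 µg/kg (adjusted p = 1.04e-05) and -1.40 ± 0.29 at 30 µg/kg (adjusted p = 0.000543; log2 ± SE, n = 3 each, edgeR). At 0.3 µg/kg the call was lost without the second vehicle library (adjusted p = 0.0823), the third vehicle library (0.0696) or the third 0.3 µg/kg library (0.227), and in a fit of these groups alone (0.087).

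Scap encodes the sterol-sensing escort of SREBP2. Scap was at 56.5, 70.2 and 44.6 CPM in 30 µg/kg livers, against 204, 172 and 185 CPM in vehicle livers, and the groups did not overlap. The fold change was -1.21 ± 0.16 at 1 µg/kg, -0.64 ± 0.16 at 3 µg/kg, -0.95 ± 0.16 at 10 µg/kg and -1.71 ± 0.16 at 30 µg/kg (adjusted p = 9.75e-09, edgeR). The estimate at 3 µg/kg was smaller than that at 1 µg/kg, and that difference was not tested. The Scap call at 3 µg/kg was lost without the first vehicle library (adjusted p = 0.0566) or the second 3 µg/kg library (0.0651). Scap shares 13.2% of its exon bases with a gene on the other strand, and the strand setting of the counting is not given in the sources used here.

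Srebf2 encodes SREBP2 itself, which binds its own promoter. Srebf2 was at 41.4, 54.3 and 40.6 CPM in 30 µg/kg livers, against 94.3, 137 and 106 CPM in vehicle livers. It fell at 1 µg/kg (-0.97 ± 0.19), 3 µg/kg (-0.72 ± 0.19), 10 µg/kg (-0.84 ± 0.19) and 30 µg/kg (-1.31 ± 0.19, adjusted p = 8.47e-06). All livers at these 4 doses lay below the vehicle livers. So did the livers at 0.1 µg/kg (82.65 to 86.95 CPM) and 0.3 µg/kg (71.8 to 88.6 CPM), where Srebf2 was not called. The 3 livers at 1 µg/kg were unlike in immune markers, with summed macrophage markers of 412 to 1536 CPM, against 283 to 428 CPM in vehicle livers, and summed neutrophil markers of 4.90 to 1063 CPM, against 1.20 to 2.61 CPM in vehicle livers. Their part in the result was not tested. Without any 1 of these livers the calls at 1 µg/kg held for Insig2 (highest adjusted p = 0.000489), Scap (0.000217) and Srebf2 (0.00477). The Srebf2 call at 3 µg/kg was lost without the second vehicle library (adjusted p = 0.123) or without any of the 3 livers of that dose (0.0516 to 0.0604).

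Insig1, the INSIG gene that SREBP2 switches on, was at 82.8, 126 and 53.9 CPM in 30 µg/kg livers, against 118, 412 and 218 CPM in vehicle livers. The ranges overlapped, and Insig1 fell by 1.51 ± 0.37 at 30 µg/kg (adjusted p = 0.00281). Stard4, a soluble carrier of cholesterol between membranes, was at 38.6, 87.2 and 40.5 CPM in 30 µg/kg livers, against 82.3, 191 and 124 CPM in vehicle livers. Stard4 fell by 1.25 ± 0.32 at 30 µg/kg (adjusted p = 0.00318), again with overlap, and was called at no other dose. Mylip, an LXR target whose protein marks the LDL receptor for degradation, was at 10.2, 10.7 and 11.3 CPM in 30 µg/kg livers and 12.8, 12.5 and 9.23 CPM in vehicle livers, and it passed the test at no dose.

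**Figure D2:**
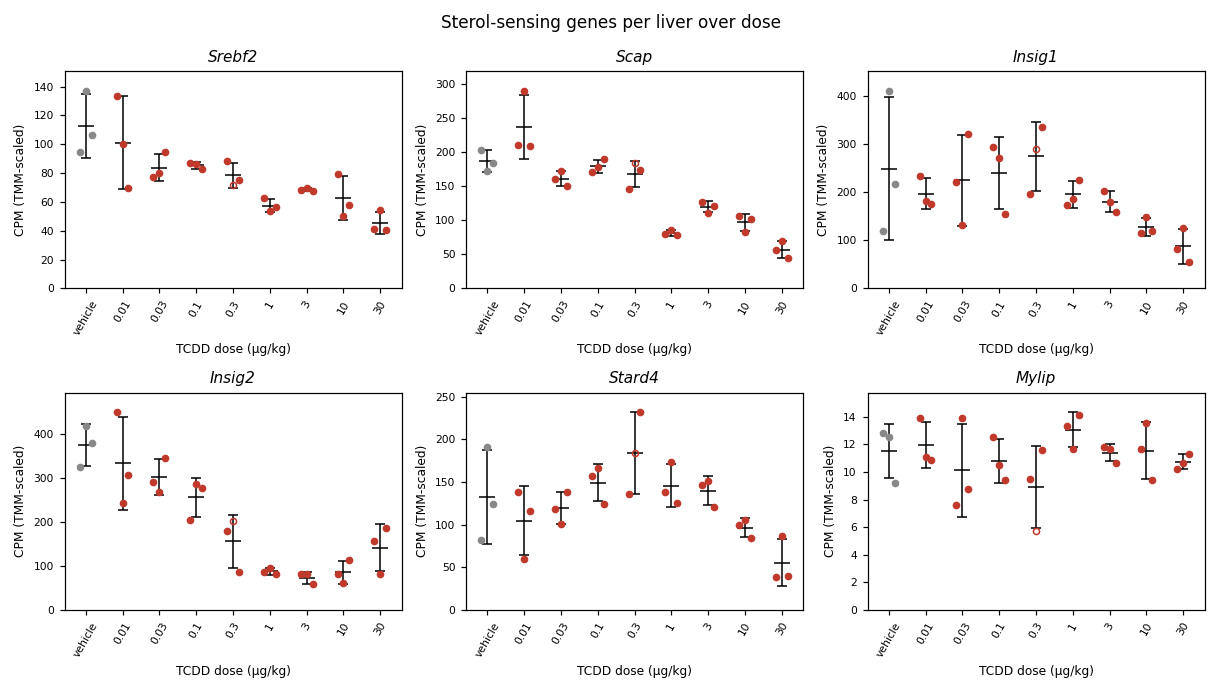
CPM of the 6 sterol-sensing genes in each liver (points, vehicle in grey and TCDD in red) over dose in µg/kg, with the mean and SD of 3 livers as black bars; the open circle is the library of 434011 counts. Insig2 has its lowest group at 3 µg/kg, with 58.1 to 81.4 CPM, and its 30 µg/kg livers span 81.9 to 187 CPM.

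Of the mevalonate and isoprenoid enzymes 3 of 8 fell at 30 µg/kg, and 2 of these, Hmgcs1 and Pmvk, also fell at 10 µg/kg. Pmvk, phosphomevalonate kinase, was at 24.9, 29.8 and 21.96 CPM in 30 µg/kg livers, against 70.8, 55.9 and 71.5 CPM in vehicle livers. It fell at 1 µg/kg (-0.88 ± 0.26), 10 µg/kg (-1.13 ± 0.26) and 30 µg/kg (-1.37 ± 0.26, adjusted p = 0.000203), but was not called at 3 µg/kg. At 1 µg/kg, in the group whose livers differed in immune markers, the Pmvk call was lost without the first vehicle library (adjusted p = 0.0585), the third vehicle library (0.0626), the first 1 µg/kg library (0.0732) or the second (0.0571).

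Fdps, farnesyl diphosphate synthase, was at 12.2, 23.01 and 11.8 CPM in 30 µg/kg livers, against 51.6, 57.5 and 47.0 CPM in vehicle livers. The groups were well apart, and Fdps fell by 1.73 ± 0.42 at 30 µg/kg (adjusted p = 0.0031). Hmgcs1, the cytosolic HMG-CoA synthase that condenses acetyl-CoA units before mevalonate, was at 172, 175 and 194 CPM in 30 µg/kg livers, against 310, 787 and 465 CPM in vehicle livers. The 30 µg/kg livers lay close together and the vehicle livers far apart. The lowest 0.01 and 0.03 µg/kg livers, at 144 and 142 CPM, lay below all 30 µg/kg livers, and Hmgcs1 was not called at those doses. Hmgcs1 fell by 1.53 ± 0.53 at 30 µg/kg (adjusted p = 0.0272) and by 1.54 ± 0.53 at 10 µg/kg (adjusted p = 0.0398). The Hmgcs1 call at 30 µg/kg was lost without the second vehicle library (adjusted p = 0.138) or without any of the 3 livers of that dose (0.067 to 0.0907) or with no low-count filter (0.0544), and the call at 10 µg/kg was lost in 12 of 35 alternatives, with the highest adjusted p, 0.199, without the second vehicle library.

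The other 5 mevalonate genes were called at no dose against vehicle. Mvd, mevalonate diphosphate decarboxylase, had a fold change of -1.47 ± 0.69 at 30 µg/kg (adjusted p = 0.102), with 13.3, 20.4 and 7.29 CPM in 30 µg/kg livers and 13.4, 76.1 and 24.6 CPM in vehicle livers. Acat2 (cytosolic acetyl-CoA acetyltransferase), Mvk (mevalonate kinase), Idi1 (isopentenyl diphosphate isomerase) and Ggps1 (geranylgeranyl diphosphate synthase) had fold changes of -0.53, -0.54, -0.68 and -0.12 at 30 µg/kg.

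Of the squalene and sterol ring enzymes 8 of 12 fell at 30 µg/kg, and the largest declines were those of Sc5d, Tm7sf2 and Ebp. Sc5d, the sterol desaturase that makes the direct precursor of the last step, was at 132, 177 and 102 CPM in 30 µg/kg livers, against 460, 526 and 473 CPM in vehicle livers. Sc5d fell by 1.83 ± 0.24 at 30 µg/kg (adjusted p = 1.55e-06) and by 1.07 ± 0.23 at 10 µg/kg (adjusted p = 0.00164). Ebp, the sterol isomerase, was at 97.4, 186 and 108 CPM in 30 µg/kg livers, against 385, 303 and 356 CPM in vehicle livers. Ebp fell by 1.42 ± 0.20 at 30 µg/kg (adjusted p = 4.93e-06) and by 0.72 ± 0.20 at 10 µg/kg (adjusted p = 0.0102). Dhcr7, the reductase of the last step, was at 41.7, 53.1 and 47.0 CPM in 30 µg/kg livers, against 115, 107 and 93.1 CPM in vehicle livers, and fell by 1.15 ± 0.24 (adjusted p = 0.00048). For these 3 genes no 30 µg/kg liver reached the lowest vehicle liver. The same held for other genes here, among them Nsdhl, Hmgcs1 and Msmo1, the last of which was not called. The share of all tested genes without overlap is not given here. The Ebp call at 10 µg/kg was lost without the first vehicle library (adjusted p = 0.0604) or the third 10 µg/kg library (0.089), and the Dhcr7 call at 10 µg/kg (0.0363) was lost in 16 of 35 alternatives, with the highest adjusted p, 0.187, without the second 10 µg/kg library.

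Tm7sf2, a sterol reductase of the ER membrane, was at 59.5, 110 and 43.1 CPM in 30 µg/kg livers, against 182, 214 and 222 CPM in vehicle livers. Tm7sf2 fell by 1.54 ± 0.35 (adjusted p = 0.0014), and it shares 12.1% of its exon bases with Vps51 on the same strand. Nsdhl, which removes a carboxyl group from the ring, was at 29.3, 41.8 and 32.1 CPM in 30 µg/kg livers, against 74.8, 73.8 and 69.3 CPM in vehicle livers. Nsdhl fell by 1.08 ± 0.34 (adjusted p = 0.0154), a call lost without the first 30 µg/kg library (0.0801) or the third (0.0642).

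Fdft1 (squalene synthase), Lss (which closes the ring) and Cyp51 (the lanosterol demethylase) fell by 1.02 ± 0.35, 1.05 ± 0.36 and 0.97 ± 0.37 at 30 µg/kg (adjusted p = 0.0245, 0.0272 and 0.041). Their vehicle livers spanned 61.1 to 111 CPM for Fdft1, 51.2 to 119 CPM for Lss and 131 to 257 CPM for Cyp51, and in each the highest was the second vehicle liver. Without that library the adjusted p was 0.152 for Fdft1, 0.241 for Lss and 0.207 for Cyp51. These calls were also lost without the first 30 µg/kg library (0.106 for Fdft1, 0.122 for Lss, 0.135 for Cyp51) or the third (0.128 for Fdft1, 0.105 for Lss, 0.117 for Cyp51), and with no low-count filter (0.0576 for Fdft1, 0.0609 for Lss, 0.0856 for Cyp51). The Cyp51 call was lost in 10 of 35 alternatives, among them RLE (0.0693) and upper-quartile (0.0722) scaling and the removal of the third vehicle library (0.0575), the first 1 µg/kg library (0.0541), the third 10 µg/kg library (0.0571) or the second 30 µg/kg library (0.059). Fdft1 shares 18.3% of its exon bases with Ctsb on the other strand.

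Sqle, squalene epoxidase, was not called: it was at 27.4, 48.6 and 42.6 CPM in 30 µg/kg livers and 39.6, 147 and 55.4 CPM in vehicle livers, a fold change of -1.02 ± 0.58 (adjusted p = 0.177). Msmo1 (methylsterol monooxygenase), Hsd17b7 (a ketosteroid reductase of the pathway) and Lbr (the lamin B receptor, also a sterol reductase) had fold changes of -0.87, -0.66 and -0.27 at 30 µg/kg and were called at no dose. For Msmo1 the 3 livers at 30 µg/kg, at 83.1 to 108 CPM, lay below the vehicle livers, at 113 to 271 CPM, with an adjusted p of 0.105.

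**Figure D3:**
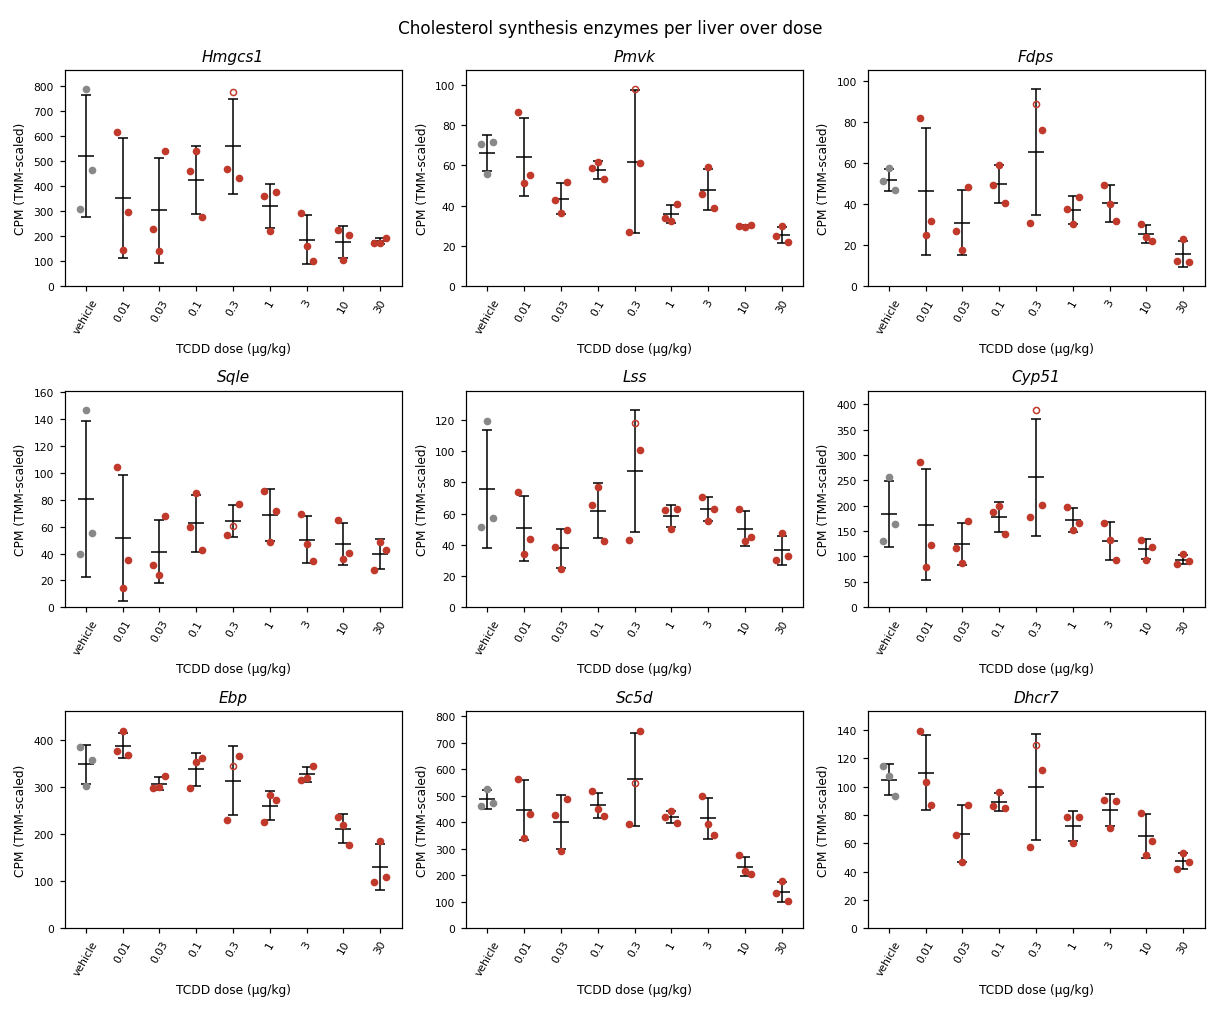
CPM of 9 synthesis enzymes in each liver (points, vehicle in grey and TCDD in red) over dose in µg/kg, with the mean and SD of 3 livers as black bars; the open circle is the library of 434011 counts. Of the 9, only Sqle has 30 µg/kg livers that overlap the vehicle livers, which for Sqle span 39.6 to 147 CPM.

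The vehicle livers differed among themselves in the enzymes. The second vehicle liver was the highest of the 3 for 14 of 20 enzymes and 18 of 30 genes. The summed level of the 20 enzymes was 2186 to 3370 CPM in vehicle livers, 1321 to 1761 CPM in 10 µg/kg livers and 953 to 1312 CPM in 30 µg/kg livers, so all 30 µg/kg livers lay below all 10 µg/kg and vehicle livers. At 0.01 and 0.03 µg/kg, where none of these genes was called, the sums were 1630 to 3285 CPM and 1429 to 2542 CPM. The lowest livers at those doses were thus below all vehicle livers and within the range of the 10 µg/kg livers.

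Per kilobase of exon, a scale on which genes can be roughly compared, the highest mean levels in vehicle livers were Ebp at 151, Hmgcs1 at 113, Insig2 at 108, Sc5d at 99.9 and Insig1 at 80.6 CPM per kilobase. The length joins all annotated exons of a gene, 2310 bases for Ebp and 10787 for Lss, and can exceed that of the transcript in use. The order of genes therefore depends in part on the annotation. The lowest were Ggps1 at 1.32 and Idi1 at 1.22 CPM per kilobase. At 30 µg/kg Ebp was still the highest, at 56.4 CPM per kilobase, followed by Insig2 at 40.7 and Hmgcs1 at 39.3.

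**Figure D4:**
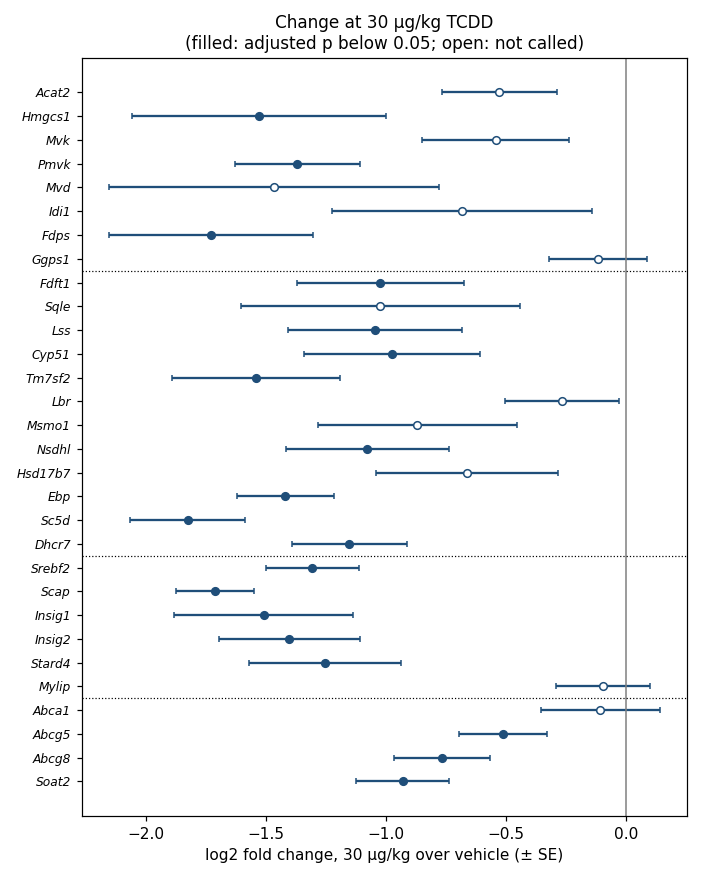
Log2 fold change of each gene at 30 µg/kg over vehicle (across) with its SE, genes down the page by role; filled points have an adjusted p below 0.05. All 30 points lie below 0, and Sc5d has the lowest value, -1.83.

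Among the 4 efflux and esterification genes, Abcg5 was called higher at 1 and 3 µg/kg and lower at 30 µg/kg, Abcg8 and Soat2 were called only at 30 µg/kg, as lower, and Abca1 was called at no dose. The vehicle livers had 107, 100.3 and 108 CPM of Abcg5, the 1 µg/kg livers 170, 170 and 129 CPM and the 3 µg/kg livers 149, 139 and 205 CPM. The 10 µg/kg livers had 109, 117 and 91.8 CPM, and the 30 µg/kg livers 73.7, 86.96 and 59.8 CPM. The 1 and 3 µg/kg livers lay above, and the 30 µg/kg livers below, all vehicle livers. The 0.03 µg/kg livers (119 to 134 CPM) and the 0.3 µg/kg livers (145.5 to 153 CPM) also lay above every vehicle liver, without a call. Abcg5 rose 1.49-fold at 1 µg/kg (log2 0.57 ± 0.18, adjusted p = 0.028) and 1.57-fold at 3 µg/kg (log2 0.65 ± 0.18, adjusted p = 0.022), and fell by 0.51 ± 0.18 on the log2 scale at 30 µg/kg (adjusted p = 0.0286). Each of these calls is close to the threshold. At 1 µg/kg the Abcg5 call was lost without any 1 of the vehicle livers or the first or second 1 µg/kg library (adjusted p = 0.0634 to 0.105), and at 3 µg/kg without any 1 of the vehicle livers or the third 3 µg/kg library (0.051 to 0.173). At 30 µg/kg it was lost with RLE (0.0818) or upper-quartile (0.085) scaling and by DESeq2 (0.0849), and without the first or the third vehicle library (0.0823 and 0.08) or the first or the third 30 µg/kg library (0.0907 and 0.184).

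Abcg8, whose protein pairs with ABCG5 to pump sterols into bile, is transcribed from a neighbouring start in the other direction. The window of Abcg5 (chr17:84682962-84683261, minus strand) and a window of Abcg8 (chr17:84682871-84683170, plus strand) overlap, and without a stated strand setting reads where the 2 genes overlap (3.02% of Abcg5 exon bases) could not be split. Abcg8 was at 81.5, 80.9 and 66.1 CPM in 30 µg/kg livers, against 136, 116 and 136 CPM in vehicle livers, and fell by 0.77 ± 0.20 (adjusted p = 0.00337). At 3 µg/kg its fold change was 0.49 ± 0.20 (adjusted p = 0.125), with all 3 livers, at 154 to 226 CPM, above the vehicle livers. The 0.03 µg/kg livers, at 141 to 167 CPM, also lay above the vehicle livers, and Abcg8 was not called there.

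Soat2, the hepatocyte enzyme that esterifies cholesterol for storage and lipoproteins, was at 32.6, 28.7 and 28.7 CPM in 30 µg/kg livers, against 62.5, 43.2 and 65.8 CPM in vehicle livers. Soat2 fell by 0.93 ± 0.19 at 30 µg/kg (adjusted p = 0.000462). Abca1, which loads cholesterol onto apolipoprotein A-I, was at 119, 117 and 198 CPM in 30 µg/kg livers and 134, 167 and 168 CPM in vehicle livers.

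**Figure D5:**
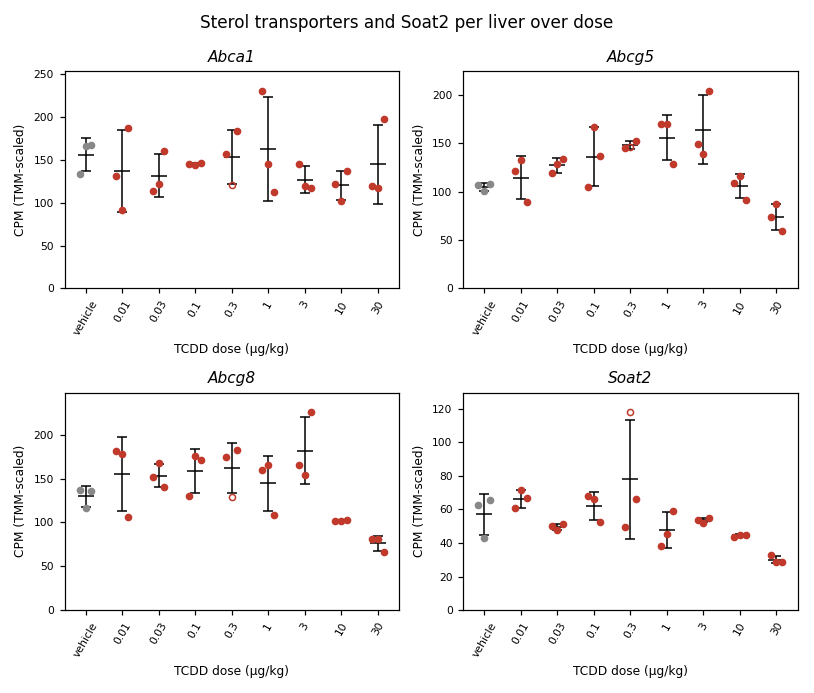
CPM of Abca1, Abcg5, Abcg8 and Soat2 in each liver (points, vehicle in grey and TCDD in red) over dose in µg/kg, with the mean and SD of 3 livers as black bars; the open circle is the library of 434011 counts. Abcg5 and Abcg8 are highest on average at 3 µg/kg and lowest at 30 µg/kg, where Abcg5 spans 59.8 to 86.96 CPM.

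Between the 2 highest doses, only Scap was called: it was at 56.5, 70.2 and 44.6 CPM at 30 µg/kg, against 106, 82.8 and 102 CPM at 10 µg/kg, and fell by 0.77 ± 0.16 (adjusted p = 0.00882), where 1.83% of all tested genes fell and 1.38% rose. In a fit of these groups alone the Scap call was lost (adjusted p = 0.163). It was also lost without the first 10 µg/kg library (adjusted p = 0.0806), the first 30 µg/kg library (0.0588) or the third (0.1). The median of the 30 genes was -0.42, against 0.01 over all tested genes, and 11 had an unadjusted p below 0.05. Without the second 30 µg/kg library 7 were called, and the share of all tested genes called in that refit is not given here.

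A comparison of 30 with 3 µg/kg was added after the dose curves of Insig2 and Abcg5 had been seen. Here 15 of the 30 genes were lower and 1 was higher at 30 µg/kg, where 12.3% of all tested genes were lower and 10.7% higher. The higher gene was Insig2, at 156, 81.9 and 187 CPM at 30 µg/kg, against 81.1, 81.4 and 58.1 CPM at 3 µg/kg (1.93-fold, log2 0.95 ± 0.29, adjusted p = 0.021). The Insig2 call was lost without the third 3 µg/kg library (adjusted p = 0.104), the first 30 µg/kg library (0.0744) or the third (0.135). Abcg5 and Abcg8 were lower by 1.16 ± 0.18 and 1.26 ± 0.20 on the log2 scale (adjusted p = 7.26e-05 and 7.18e-05). The values of Insig2 and Abcg5 prompted the comparison, so their p-values are a description of the curves. Among the enzymes Sc5d was 3.02-fold and Ebp 2.51-fold lower at 30 µg/kg than at 3 µg/kg. Without the first 30 µg/kg library 8 of the 30 were called, and without the third 7. The shares of all tested genes called in these refits are not given here. Since 30 µg/kg enters this comparison and that with vehicle, the 2 are not independent.

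Over the dose ranks 0 (vehicle) to 8 (30 µg/kg), 12 of 30 genes had a falling trend and 0 a rising one, against 23.3% of all tested genes in each direction. The steepest slopes were those of Insig2 (-0.26 ± 0.04 log2 units per rank, adjusted p = 2.88e-06), Scap (-0.21 ± 0.03, adjusted p = 1.22e-07) and Hmgcs1 (-0.18 ± 0.05, adjusted p = 0.0056). Srebf2 had a slope of -0.14 ± 0.02 (adjusted p = 3.53e-07). Within the libraries of the first index set (vehicle, 0.01, 0.03, 0.1 and 30 µg/kg) 16 genes were called, with all 12 among them. Above 0.1 µg/kg this set holds only the 30 µg/kg livers, so its result is not independent of their comparison with vehicle. Within the libraries of the second index set (0.3, 1, 3 and 10 µg/kg) 6 were called, of which 3 were among the 12: Hmgcs1, Sc5d and Insig1. The share of all tested genes called within each index set is not given here. In the second index set the slope of Srebf2 was -0.05 (adjusted p = 0.668), that of Scap -0.17 (0.272) and that of Insig2 -0.24 (0.163). That set holds no vehicle livers, and an effect of index was not tested by these fits.

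Within groups, many of these genes moved together from liver to liver. Deviations of log2(CPM + 0.5) from the group mean were correlated over the 26 deeper libraries, as a description. Pearson's r had a median of 0.64 over the 190 pairs of enzymes and 0.36 over the 435 pairs of all 30 genes. With Sqle, r was 0.97 for Msmo1, 0.96 for Cyp51, 0.91 for Hsd17b7 and 0.90 for Hmgcs1, with a median of 0.61 over the cholesterol genes and 0.01 over all tested genes. Ebp (r = -0.01), Tm7sf2 (0.21) and Scap (-0.36) did not follow Sqle. Genes of a library share its scaling and RNA, and the correlations say nothing of dose, which the group means removed.

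Genes around the pathway were read from lists chosen with earlier results of these data known. Their counts stand beside a background of 19.4% lower and 18% higher at 30 µg/kg, 11.2% lower and 11.3% higher at 10 µg/kg and 23.3% in each direction in the trend, and several lists lie near it. The 5 genes of acetyl-CoA supply and mitochondrial HMG-CoA metabolism fell at 30 µg/kg in 5 of 5 cases, and 3 of 5 fell at 10 µg/kg. Acss2, which makes acetyl-CoA from acetate and is an SREBP target, averaged 63.7 ± 5.45 CPM in 30 µg/kg livers and 318 ± 74.7 CPM in vehicle livers (SD, n = 3 each; log2 -2.32 ± 0.41, adjusted p = 0.000125 by edgeR). Acly, which makes it from citrate, averaged 63.1 ± 18.8 CPM in 30 µg/kg livers and 208 ± 15.3 CPM in vehicle livers (log2 -1.72 ± 0.30). Acat1, the mitochondrial thiolase, fell by 1.17 ± 0.23 on the log2 scale.

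Of 4 LXR genes at 30 µg/kg 3 fell and 1 rose. Abcg1, an LXR target that moves cholesterol onto HDL, averaged 21.1 ± 1.77 CPM in 30 µg/kg livers and 6.23 ± 2.33 CPM in vehicle livers (log2 1.76 ± 0.29, adjusted p = 4.35e-05 by edgeR). Lpcat3, the LXR target that remodels phospholipids, fell by 1.23 ± 0.21, and Nr1h3, the gene of LXR alpha, by 0.95 ± 0.16. At 10 µg/kg 2 fell and 1 rose. Of 12 sterol transfer genes 4 fell and 2 rose at 30 µg/kg, with Lipa, the lysosomal acid lipase, at 126 ± 10.1 CPM in 30 µg/kg livers and 316 ± 15.0 CPM in vehicle livers (log2 -1.33 ± 0.14), Gramd1c, an ER sterol carrier, higher by 0.94 ± 0.16 and Scarb1, the HDL receptor, lower by 0.82 ± 0.19. At 10 µg/kg 1 fell and 2 rose.

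Of 8 genes that process SREBP or retain sterol regulators in the ER 2 fell and 0 rose at 30 µg/kg, with Erlin2 lower by 0.74 ± 0.13 on the log2 scale. At 10 µg/kg 1 fell and 1 rose. Of 4 electron donors of the sterol enzymes 2 fell and 0 rose at 30 µg/kg: Cyb5r3, cytochrome b5 reductase, by 1.19 ± 0.19 and Cyb5b by 0.63 ± 0.17. At 10 µg/kg 2 fell and 2 rose. Of 10 genes that use isoprenoids 1 fell and 2 rose at 30 µg/kg, as at 10 µg/kg, with Pdss1 and Coq2, of ubiquinone synthesis, higher by 0.93 ± 0.27 and 0.80 ± 0.13 and Fnta, a prenyltransferase subunit, lower by 0.39 ± 0.12 at 30 µg/kg. Of 3 enzymes that form oxysterols Cyp27a1 fell at both doses, by 1.16 ± 0.18 at 30 µg/kg. Ch25h had 33 counts over the 30 µg/kg livers and 1 count over the vehicle livers, and since it passed the low-count filter through the dosed livers its call is not counted. In the trend over dose, 5 of 5 acetyl-CoA genes fell, 3 of 4 LXR genes fell and 1 rose, and 5 of 8 SREBP processing genes fell and 1 rose. Of the 12 sterol transfer genes 3 fell and 3 rose, of the 4 electron donors 2 fell and 2 rose, of the 10 isoprenoid users 2 fell and 2 rose, and of the oxysterol enzymes 1 of 3 fell.

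Markers of some other cell types were higher in 30 µg/kg livers, and those of others were not. The 6 neutrophil markers were called higher, summing to 48.4 to 114 CPM in 30 µg/kg livers and 1.20 to 2.61 CPM in vehicle livers. Of these, Ngp, Ltf, Camp and Mpo had 1 to 4 counts over the vehicle livers and passed the low-count filter through the dosed livers, so only S100a8 and S100a9 bear a count of calls. The 4 B cell markers rose (12.3 to 19.9 CPM in 30 µg/kg livers, 3.71 to 6.12 CPM in vehicle livers), as did 4 of 5 bile duct markers (109.9 to 334 CPM in 30 µg/kg livers, 42.1 to 58.8 CPM in vehicle livers) and 3 of 6 stellate cell and fibroblast markers (500.5 to 887 CPM in 30 µg/kg livers, 261 to 350.4 CPM in vehicle livers). Of the others, 0 of 4 T cell markers were called (3.69 to 4.70 CPM in 30 µg/kg livers, 1.83 to 3.43 CPM in vehicle livers), 1 of 6 macrophage markers fell (321 to 439 CPM in 30 µg/kg livers, 283 to 428 CPM in vehicle livers) and 1 of 5 endothelial markers fell (107 to 173 CPM in 30 µg/kg livers, 133 to 164 CPM in vehicle livers). No list had a marker at 0 over either group. The part of these cells in the results was not tested.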

How the data were processed

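Total RNA of 27 mouse livers was made into libraries with an Illumina TruSeq kit, per the labels' protocols. The deposited files hold raw counts of reads per Ensembl gene, made by the authors with HTSeq 0.6.1 after TopHat 1.4.1 alignment to GRCm38, with cutadapt 1.4.1, FastQC 0.11.2 and SAMtools 0.1.19, per the submitters' processing notes, which also name DESeq. Neither the strand option of the counting nor its gene annotation is given in the sources used here. Each deposited table also has 5 summary lines that name no gene, left out of library sizes and tests: reads in no gene were 5.62% to 11.9% and ambiguous reads 1.79% to 3.49% of a table's total. Symbols and exon lengths came from the GENCODE annotation of GRCm38, which named 40340 of 41388 identifiers.

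Groups follow the dose label. Counts were tested with edgeR 4.0.16 (TMM, filterByExpr with a minimum count of 10, robust quasi-likelihood, a one-way model over 27 libraries, and a slope over dose ranks 0 to 8) in R 4.3.3, after tests on simulated data. The SE was derived as the size of the log2 fold change over the root of its F statistic. Calls have a Benjamini-Hochberg adjusted p below 0.05 over 15121 genes. Alternatives were RLE and upper-quartile scaling, DESeq2 1.42.0, no filter or at least 1 CPM in 3 libraries, non-robust dispersion, a replicate block, other fits of the trend, the compared libraries alone, and each library left out in turn. The 30 genes and all lists were chosen with earlier results of these data known. Each of the 30 is accounted for, and up to 3 called genes with the largest change at 30 µg/kg are named from each related list, except 1 that is not reported here. No 2 libraries of a group agreed within sampling noise.

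The total counts limit precision: fold changes of genes under 10 counts in the 0.3 µg/kg library of 434011 counts rest on the other livers.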

Additional observations from a re-analysis of the deposited data

How the results depend on the processing

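No direction of a called gene reversed in any of the alternatives. The counts below are of cholesterol genes, and the shares of all tested genes called in the same alternatives are not given here. Counts of called cholesterol genes that moved by over 1.5 times were as follows. At 0.3 µg/kg against vehicle, the compared libraries alone gave 0, against 1. For 30 against 10 µg/kg, DESeq2 gave 3, no low-count filter 2 and the compared libraries alone 0, against 1. The trend within the second index set gave 6, against 12. The cause was not tested.

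With 1 library left out, the counts ranged from 0 to 0 at 0.01, 0.03 and 0.1 µg/kg, from 0 to 1 at 0.3 µg/kg (1 with all libraries), from 3 to 5 at 1 µg/kg (5), from 2 to 4 at 3 µg/kg (4), from 5 to 9 at 10 µg/kg (8) and from 13 to 19 at 30 µg/kg (19), from 0 to 7 for 30 against 10 µg/kg (1), from 7 to 17 for 30 against 3 µg/kg (16) and from 11 to 15 for the trend (12). The low values came without vehicle 2 or 3 or 0.3 µg/kg liver 3 at 0.3 µg/kg, without vehicle 1 or 3 or 1 µg/kg liver 1 or 2 at 1 µg/kg, without vehicle 1 or 2 or 3 µg/kg liver 2 or 3 at 3 µg/kg, and without 10 µg/kg liver 3 at 10 µg/kg. For 30 against 10 µg/kg, 0 were called without 10 µg/kg liver 1 or 30 µg/kg liver 1 or 3, 7 without 30 µg/kg liver 2, 3 without 0.01 µg/kg liver 2 or any 0.3 µg/kg liver, and 2 without 1 µg/kg liver 1 or 2 or 10 µg/kg liver 3. For 30 against 3 µg/kg, 8 were called without 30 µg/kg liver 1 and 7 without liver 3.

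The labels number the livers 1 to 3 in each group. The deviations of same-numbered TCDD and vehicle livers correlated over 0.1 in 4 of 24 pairs, and 7 of 24 TCDD livers correlated best with the vehicle liver of their own number. This gave no sign that the numbers pair the livers, but with 3 livers in a group a weak pairing could be missed. With the replicate block, 2 genes were called for 30 against 10 µg/kg, against 1, and 19 at 30 µg/kg, 8 at 10 µg/kg and 12 in the trend, as without it.

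Of 1050 gene values recomputed at 30 µg/kg, 32 lost their call and 2 gained one, and at 10 µg/kg 30 lost and 4 gained one. Only a called gene can lose its call, and each gene was recomputed in 35 alternatives. The losses therefore fall on the 19 genes called at 30 µg/kg and the 8 called at 10 µg/kg, not on all 1050 values. Depth limits the second 0.3 µg/kg library only.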
